A study of Bos taurus with 6 samples.

Results

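The genes described here are the steroidogenic enzymes and cofactors of cultured bovine granulosa cells (GC), taken by their symbols. They are STAR, CYP11A1, HSD3B1, CYP19A1, CYP17A1, HSD17B1, FDX1, FDXR and POR. Each of these 9 symbols is carried by 1 of the 26773 transcript clusters in the deposited table. A transcript cluster groups the probe sets that the array reads together as a gene. The 26773 include 82 reporter control rows. The array was the Bovine Gene 1.0 ST type, and RNA from each of 6 primary bovine GC cultures was run on 1 array. The initial plating density was normal in 3 cultures and high in 3. Cultures of both densities were kept for 9 days in serum-free α-MEM with FSH, IGF-1 and androstenedione. The cells were aspirated from small to medium follicles of abattoir ovaries, pooled over many cows of undefined cycle stage and frozen before culture. A culture therefore stands for a cell pool and not for an animal. The methods speak of 6 GC preparations and describe GC preparations as cell pools. The labels number the cultures within a density. Neither states outright that the 6 came from separate pools, so how much of the spread between these cultures is technical is unknown. The p-values rest on that spread, and in the main test also on that of the other transcript clusters.

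Steroid hormones are made from cholesterol in a chain of reactions. STAR carries cholesterol to the inner mitochondrial membrane, where CYP11A1 cuts its side chain to give pregnenolone, with electrons that FDXR takes from NADPH and FDX1 hands on. HSD3B1 turns pregnenolone into progesterone, CYP17A1 opens the way to androgens, CYP19A1 (aromatase) turns androgens into estrogens, and HSD17B1 reduces estrone to estradiol. POR feeds electrons to the P450 enzymes of the endoplasmic reticulum, among them CYP17A1 and CYP19A1. In the follicle, androgens are made in theca cells and aromatized in GC, which is why androstenedione, the substrate of aromatase, is given to GC in culture.

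All values are log2 signals that the authors made with the RMA procedure. Array medians lay between 4.34 and 4.43. A level of 4.62, the 95th percentile of the 82 reporter control rows over all arrays, served as the background level. The label of the cells was checked against marker genes. In the GC list the higher group mean of all 15 transcript clusters lay above the background level. For 3 of them the lower group mean did not. These were HSD17B1 (4.19) and WT1 (4.22) at normal density and CYP19A1 (3.71) at high density. The high density mean of WT1, 4.67, was close to the level. CYP19A1 and HSD17B1 are on this list, and without them it holds 13, of which 0 were called as higher and 6 as lower. Their summed linear signal was between 9237 and 10044 at normal and between 6886 and 7274 at high density.

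The summed signals of 5 lists of other cell types were higher in all high density cultures than in all normal density cultures, and those of leukocytes overlapped. For theca cells 5 of 11 transcript clusters were above the background level, with sums between 2111 and 2247 at normal and between 2753 and 2885 at high density. INSL3, a hormone of theca cells, rose by 1.82 on the log2 scale and was called, and PTCH1 and PDGFRA rose by 0.31 and 0.32 without being called. NR2F2 and DCN, also above the background level, did not pass the FDR threshold, with changes of −0.07 and 0.17. DCN had the highest signal of the list, with means of 10.68 at normal and 10.86 at high density. CYP17A1, the defining theca enzyme of the list, was below the background level on all 6 arrays. For the surface epithelium 3 of 8 were above the background level, and the sums went from between 144.5 and 175.9 to between 984.4 and 1106. Both called genes of that list are keratins, KRT18 with a rise of 4.29 and KRT8 with one of 3.57. MSLN, with means of 5.61 at normal and 5.75 at high density, was also above the background level and did not pass the FDR threshold. EPCAM, KRT7, KRT19 and the rest of the list were below the background level at both densities. For endothelial cells 4 of 11 were above it, and sums between 165.0 and 169.1 stood against sums between 329.8 and 362.6. CLDN5, a tight junction protein, rose by 2.81 and was called. VWF, with means of 5.39 at normal and 5.70 at high density, and both transcript clusters of ENG were also above the background level. None of these passed the FDR threshold. PECAM1, CDH5 and the rest of the list were below the background level at both densities. For red blood cells only HBA of 6 was above it, and the sums went from between 47.8 and 49.1 to between 608.2 and 922.6. HBA rose from 3.48, below the background level, to 9.37 and was called, while HBB and ALAS2 stayed below the background level. In the list of smooth muscle and fibroblasts 7 of 8 were above the background level, with sums between 3862 and 3918 at normal and between 4313 and 4479 at high density. There ACTA2, TAGLN and COL1A1 were called as higher and MYH11 as lower, but the MYH11 means of 4.59 and 3.93 were both below the background level. For leukocytes 0 of 11 were above the background level, with sums between 97.0 and 103.3 at normal and between 97.6 and 110.1 at high density. The part of other cells in the results was not tested.

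Plating density separated the 2 enzymes at the estrogen end of the chain most, and in opposite directions. Between the measured means CYP19A1 fell 6.98-fold and HSD17B1 rose 2.40-fold at high density, and for each the lower mean lay below the background level, so that bounds are given further on. Towards the progesterone end the changes were small, with STAR and HSD3B1 lower and CYP11A1, FDX1 and FDXR higher, by 1.19-fold to 1.41-fold. Neither CYP17A1 nor POR passed the test. Because RNA was measured in bulk, fewer cells with a transcript and less of it per cell cannot be told apart.

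Changes are given on the log2 scale as the high density mean minus the normal density mean, with their standard error (SE) and 95% confidence interval (CI). They were tested with limma, which draws the variance of each gene towards that of all transcript clusters. The p-values were adjusted after Benjamini-Hochberg (FDR) over all transcript clusters. A gene is said to rise or fall where its FDR was below 0.05, and it is termed called where its fold change (FC) also exceeded 1.5 in size, as in the methods. Called were 2 of the 9 genes, 1 higher and 1 lower, while 7.49% of all transcript clusters were called (3.97% higher, 3.51% lower). Of those whose higher group mean was above the background level, 12.8% were called. The FDR threshold at any FC was passed by 7 of the 9, 4 higher and 3 lower, against 19.1% of all transcript clusters (8.64% higher, 10.4% lower) and 31.9% of the 13077 whose higher group mean was above the background level. Such a mean was found in 8 of the 9 genes and in 48.8% of all transcript clusters. In the same 7 genes the signals of the densities did not overlap, which held for 37.3% of all transcript clusters and 54.8% of those above the background level. The median size of the change was 0.34 over the 9 genes, 0.15 over all transcript clusters and 0.21 over those above the background level. The 9 genes were chosen with earlier results of these data known, so these comparisons are a description.

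**Figure D1:**
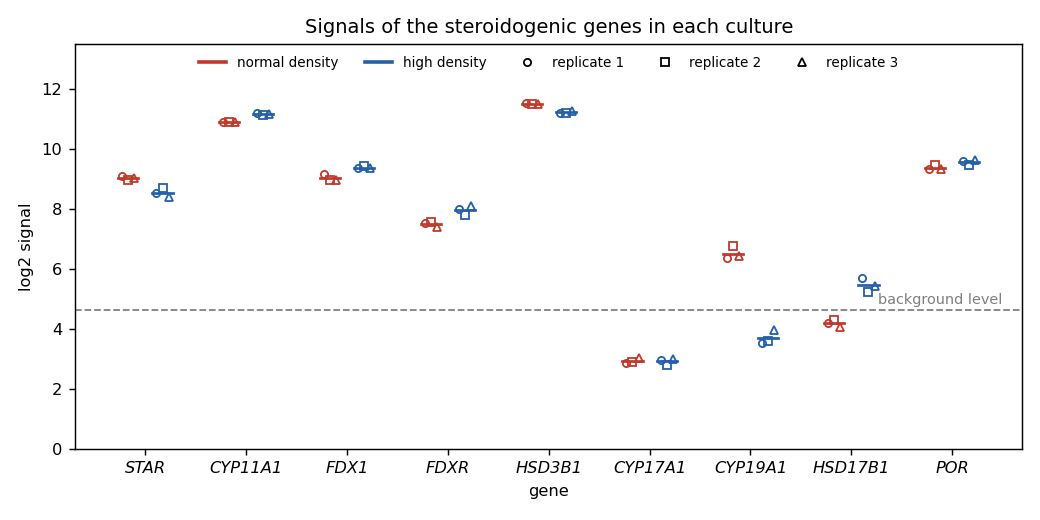
Log2 signal (y axis) of each of the 9 genes (x axis) in every culture, with normal density in red, high density in blue, a symbol per replicate number and a bar at each group mean (n = 3). The dashed line marks the background level of 4.62, and CYP19A1 lies above it at normal and below it at high density, HSD17B1 the other way round, and CYP17A1 below it throughout.

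The count of genes past the FDR threshold was between 3 and 7 when a culture was left out, while both called genes were called each time. Fewer arrays were fitted there, so the effect of a single culture and that of the array number cannot be told apart. Without normal density replicate 1 the FDR threshold was passed by 5 genes, and without normal density replicate 2 by 4. Without normal density replicate 3, high density replicate 1 or high density replicate 3 it was passed by 3. Those 3 were STAR, CYP19A1 and HSD17B1 in each case. The calculation without high density replicate 2 again gave 7. The methods' t-test called the same 2 genes, with 6.02% of all transcript clusters called, and 4 genes passed its FDR threshold, namely CYP11A1, HSD3B1, CYP19A1 and HSD17B1.

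STAR, whose product delivers the substrate, had log2 signals of 9.09, 8.97 and 9.02 in normal density replicates 1 to 3 and of 8.52, 8.70 and 8.39 in high density replicates 1 to 3. All high density cultures were below all normal density cultures, and high density replicate 2 was the nearest to them. The mean fell from 9.03 ± 0.06 to 8.54 ± 0.15 (SD, n = 3), a change of −0.49 (SE 0.09, 95% CI −0.71 to −0.27, adjusted p = 0.0105 in limma). STAR was thus not called, although the interval reaches beyond the FC threshold of 0.58 on the log2 scale.

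CYP11A1, the side chain cleavage enzyme, was measured at 10.91, 10.91 and 10.90 at normal density and at 11.19, 11.13 and 11.17 at high density. Cultures of one density differed little from each other, with an SD of 0.008 and of 0.03 (n = 3 each), and the groups were apart. CYP11A1 rose by 0.26 on the log2 scale (SE 0.06, adjusted p = 0.0294 in limma), and the 95% CI, from 0.11 to 0.40, stayed under the FC threshold.

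FDX1, the ferredoxin that passes electrons to CYP11A1, had signals of 9.17, 8.97 and 8.97 at normal and of 9.35, 9.42 and 9.37 at high density. The densities did not overlap, and normal density replicate 1 lay nearest to the high density cultures. FDX1 rose by 0.34 on the log2 scale (SE 0.08, 95% CI 0.16 to 0.53, adjusted p = 0.0229 in limma). FDXR, the reductase in front of FDX1, was measured at 7.54, 7.56 and 7.38 at normal and at 7.99, 7.80 and 8.10 at high density. Its high density cultures were all above the normal density cultures but spread more, with an SD of 0.15 against 0.10 (n = 3). FDXR rose by 0.47 on the log2 scale (SE 0.10, 95% CI 0.24 to 0.70, adjusted p = 0.0154 in limma). The electron donors of the mitochondrial step thus moved in the same direction as the enzyme they serve, and none of these rises passed the FC threshold.

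HSD3B1, which makes progesterone, gave signals of 11.54, 11.49 and 11.49 at normal density and of 11.19, 11.21 and 11.27 at high density. Here too the groups were apart and the cultures of one density close together. HSD3B1 fell from 11.50 ± 0.03 to 11.22 ± 0.04 (SD, n = 3), a change of −0.28 on the log2 scale (SE 0.07, 95% CI −0.43 to −0.13, adjusted p = 0.0234 in limma).

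**Figure D2:**
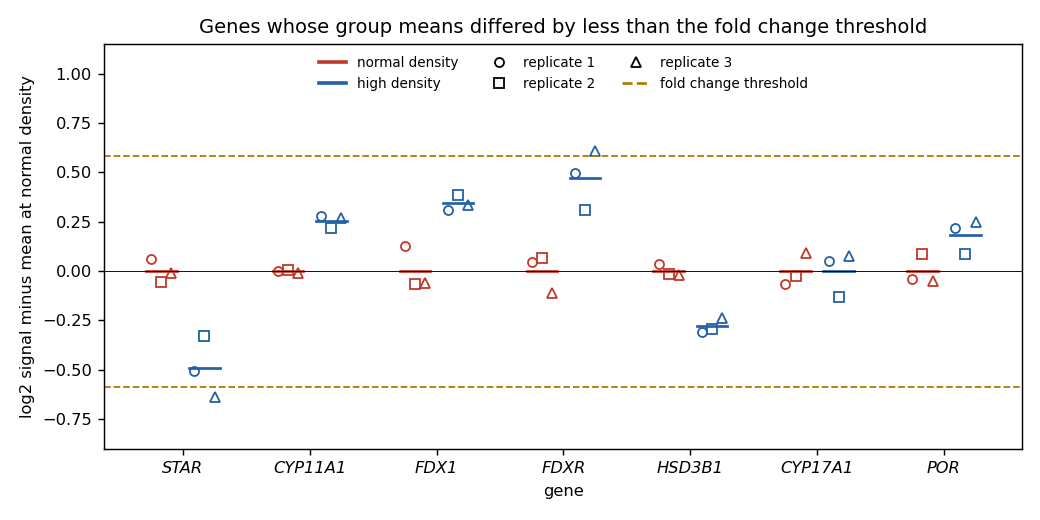
Log2 signal of each culture minus the gene's mean at normal density (y axis) for the 7 genes that were not called (x axis), with normal density in red, high density in blue, a symbol per replicate number, bars at group means (n = 3) and dashed lines at the FC threshold, 0.58 in either direction. STAR and HSD3B1 lie below 0 and CYP11A1, FDX1 and FDXR above it in all high density cultures, whereas the groups of CYP17A1 and POR overlap.

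CYP17A1, the enzyme of androgen synthesis, had signals of 2.86, 2.90 and 3.02 at normal and of 2.98, 2.79 and 3.00 at high density. All 6 values were below the background level and the groups overlapped. The means differed by −0.0012 (SE 0.09, 95% CI −0.20 to 0.20, adjusted p = 0.995 in limma), and no fold is given for signals that are both below background.

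CYP19A1 (aromatase) was measured at 6.36, 6.75 and 6.42 at normal density and at 3.54, 3.61 and 3.97 at high density. It was above the background level in each normal density and in no high density culture. On the log2 scale CYP19A1 changed by −2.80 (SE 0.15, 95% CI −3.15 to −2.46, adjusted p = 4.07e-05 in limma). Since the high density signals are not above the background level, its fall is given also as a bound. Set against the background level in their place, CYP19A1 was at least 3.70-fold lower at high density.

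HSD17B1, which reduces estrone to estradiol, showed the opposite pattern. The normal density cultures gave signals of 4.20, 4.31 and 4.07, all below the background level, and those of high density 5.69, 5.24 and 5.43, all above it. High density replicate 1 was the highest and the groups were apart. On the log2 scale HSD17B1 rose by 1.26 (SE 0.12, 95% CI 0.97 to 1.55, adjusted p = 5.90e-04 in limma). Against the background level HSD17B1 was at least 1.78-fold higher at high density. With the 90th percentile of the reporter control rows, 4.11, as the background level, 2 of the normal density cultures counted as above it. With the 99th percentile, 4.92, the bound of HSD17B1 was 1.44-fold, under the FC threshold, and that of CYP19A1 3.00-fold.

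POR, the electron donor of aromatase and of CYP17A1, was at 9.33, 9.46 and 9.32 at normal and at 9.59, 9.46 and 9.62 at high density. Replicate 2 of both densities had nearly the same signal, so that the groups met there. The difference of 0.19 (SE 0.08, 95% CI 0.00067 to 0.37) had an unadjusted p of 0.0494 in limma and did not pass the FDR threshold (adjusted p = 0.154).

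**Figure D3:**
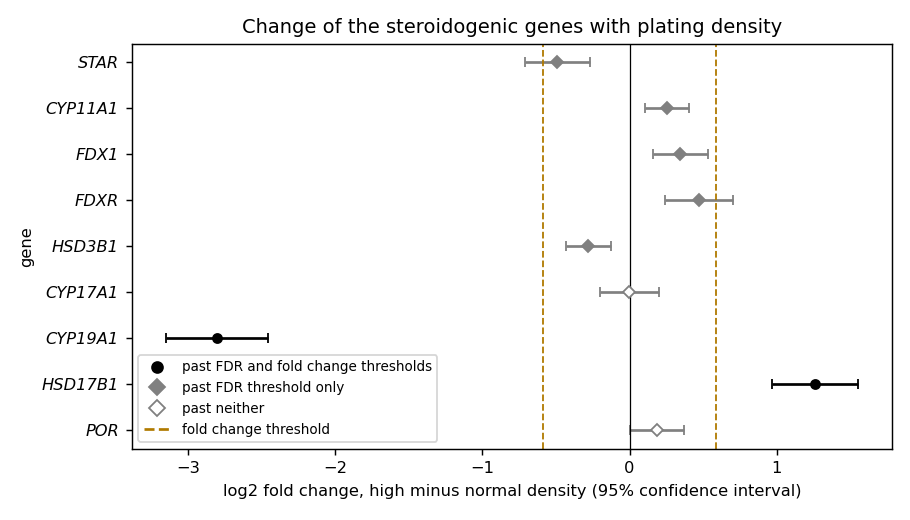
Change of the 9 genes on the log2 scale, high against normal density (x axis), with 95% CI from limma (n = 3 cultures per density) and dashed lines at the FC threshold. CYP19A1 at −2.80 and HSD17B1 at 1.26 lie outside the lines with their whole intervals, the intervals of STAR and FDXR cross a line, and those of CYP17A1 and POR lie close to or across 0.

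The changes of neighbours in the chain were set against each other as the difference of their log2 signals within each culture, for 6 pairs. With 3 cultures against 3 the exact permutation test (two-sided) cannot go below p = 0.1, so the differences are given as a description. The change of STAR was lower than that of CYP11A1 by 0.75 on the log2 scale, and the change of CYP11A1 exceeded that of HSD3B1 by 0.54, both with groups that did not overlap. The changes of CYP19A1 and HSD17B1 were apart by −4.06 between measured signals, and by at least 2.72 in size with the low group of each gene set to the background level. HSD3B1 against CYP19A1 gave 2.52, or at least 1.61 with that bound, and CYP19A1 against its electron donor POR gave −2.99, or at least 2.07 in size. FDX1 and FDXR differed in their change by −0.13, and there the groups overlapped (exact permutation test, p = 0.3). The other 5 pairs had p = 0.1 in the exact permutation test, and 0.12 after adjustment over the 6 pairs.

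The spread between cultures was larger at high than at normal density for 8 of the 9 genes, FDX1 being the exception, and for 68.4% of all transcript clusters. Over all transcript clusters the root mean square distance of an array to the others of its density was between 0.19 and 0.20 at normal density and 0.25, 0.28 and 0.25 in high density replicates 1 to 3. High density replicate 2 was the culture nearest to the normal density mean for 4 of the 7 genes with non-overlapping groups, namely STAR, CYP11A1, FDXR and HSD17B1. Among all transcript clusters with non-overlapping groups this was so for 50.1%, close to the share in the steroidogenic genes.

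The profiles of both called genes over the 6 cultures were compared with those of 1529 called transcript clusters with a single symbol and a higher group mean above the background level. The measure was the root mean square distance between log2 profiles centred on their means, which is a description without a test. Nearest to CYP19A1 was ARRDC4, an arrestin-like protein, at a distance of 0.23 and with a log2 fold change of −3.03. PIK3R3, a regulatory subunit of PI3 kinase, followed at 0.28 and SUSD4 at 0.29. The profiles nearest to HSD17B1 were those of IL4R (an interleukin receptor subunit) at 0.05, PTPRN at 0.06 and SEPT5 at 0.06. Their log2 fold changes were 1.28, 1.24 and 1.23.

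Beyond the 9 genes, lists of steroid metabolism and response held 99 further symbols in the table, with 102 transcript clusters. Of these 15 were called, 9 higher and 6 lower, or 14.7% against 7.49% of all transcript clusters. A higher group mean above the background level was found in 71 of the 102, and 13 of these were called, or 18.3% against 12.8% of all transcript clusters above that level. The lists were chosen with earlier results of these data known, so these shares describe the lists and do not test for an excess. The median log2 fold change of the 102 was 0.04, and that of all transcript clusters 0.02.

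Of the genes that deliver sterol to the mitochondrion or set it free, 14 transcript clusters were measured, 1 was called and 5 passed the FDR threshold, 4 higher and 1 lower. LIPE, the hormone-sensitive lipase that frees cholesterol from its esters, was called. It was measured at 4.41, 4.41 and 4.30 in normal density cultures, below the background level, and at 5.35, 4.96 and 5.36 in high density cultures, at least 1.52-fold higher. SOAT1, which makes cholesterol esters, fell from 9.26 ± 0.03 to 8.79 ± 0.18 (SD, n = 3) without passing the FC threshold (adjusted p = 0.0163 in limma). TSPO, a protein of the outer mitochondrial membrane, rose by 0.44 on the log2 scale (adjusted p = 0.0229 in limma), again under the FC threshold.

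In the list of redox partners and other P450 enzymes, 2 of 22 transcript clusters were called, 1 in each direction. CYP51A1, an enzyme of cholesterol synthesis that also draws on POR, rose from 9.11 ± 0.02 to 9.79 ± 0.18 (SD, n = 3; adjusted p = 0.00304 in limma), and without high density replicate 2 it was not called. CYP1B1, which hydroxylates estrogens, was called as lower, but its means of 4.41 and 3.63 were both below the background level. With the methods' t-test, and in limma without normal density replicate 3, it was not called. CYB5A, cytochrome b5, which assists CYP17A1, fell by 0.26 on the log2 scale (adjusted p = 0.0486 in limma).

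The hydroxysteroid dehydrogenases and reductases held 6 called of 31 transcript clusters, 5 higher and 1 lower, and 9 that passed the FDR threshold, 8 of them higher. HSD11B1, which regenerates active glucocorticoid, rose from 7.30, 7.26 and 7.28 to 8.43, 8.52 and 8.51, a change of 1.21 (SE 0.07, adjusted p = 4.52e-05 in limma). In the HSD17B family further called genes were HSD17B7, with a log2 fold change of 0.81, HSD17B12 with 0.71 and HSD17B14 with 0.68. These rose like HSD17B1 but from signals well above the background level, with normal density means of 7.82, 8.78 and 6.59. HSD17B4, HSD17B8, HSD17B10 and HSD17B11, also above the background level, did not pass the FDR threshold. Their changes were 0.13, −0.05, 0.16 and 0.31. The rest of the family in the list was below the background level at both densities. HSD17B7 also acts in cholesterol synthesis and HSD17B12 in fatty acid synthesis. SRD5A1, a steroid 5α-reductase, rose from 6.54 ± 0.11 to 7.38 ± 0.09 (SD, n = 3; adjusted p = 7.23e-04 in limma). The single fall in the list was that of DHRS9, a dehydrogenase of retinoids and steroids, from 7.13, 7.12 and 7.35 to 4.88, 4.92 and 4.98. Without high density replicate 3, and with the methods' t-test, HSD17B14 was not called.

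Genes of steroid conjugation, 11 transcript clusters, held 0 called by limma and 0 by the methods' t-test. In limma 4 had an unadjusted p below 0.05, and 3 passed the FDR threshold, namely ARSE and SULT2B1 as higher and SULT1A1 as lower. Both means of SULT2B1, 3.71 and 4.12, lay below the background level, as did the normal density mean of ARSE, 4.22.

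Among receptors and regulators of the pathway, 6 of 24 transcript clusters were called, 2 higher and 4 lower. FSHR, the receptor of the hormone that induces aromatase in GC, fell from 6.75, 7.16 and 6.90 to 4.68, 4.97 and 4.53, a change of −2.21 on the log2 scale. Its high density mean of 4.73 was close to the background level, and high density replicate 3 lay below that level. LHCGR, the receptor of LH, was called as lower with means of 4.04 and 2.84, both below the background level. FOXL2, a transcription factor of GC, fell from 7.94 ± 0.11 to 7.29 ± 0.15 (SD, n = 3; adjusted p = 0.00424 in limma). NR5A1 (SF-1), which binds the promoters of most genes of the chain, was measured at 7.23 ± 0.18 and 6.95 ± 0.13 and did not pass the FDR threshold (adjusted p = 0.130 in limma). Its relative NR5A2 rose by 0.41 on the log2 scale (adjusted p = 0.00482 in limma), under the FC threshold. NR4A1, an orphan receptor of the early response to LH, rose by 1.75 on the log2 scale and NR0B2, a repressor of NR5A receptors, by 0.86, and both were called. The signals of NR0B2 crossed the background level between the densities, being at least 1.25-fold higher at high density. NR3C1, the glucocorticoid receptor, fell by 0.70 on the log2 scale and was called. ESR2 fell by 0.31 (adjusted p = 0.0452 in limma) and was not called. For ESR1 one transcript cluster fell by 0.31 and the other, with both means below the background level, did not pass the test (adjusted p = 0.898 in limma). FSHR, FOXL2 and NR5A2, like CYP19A1 and HSD17B1, are also part of the GC marker list.

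**Figure D4:**
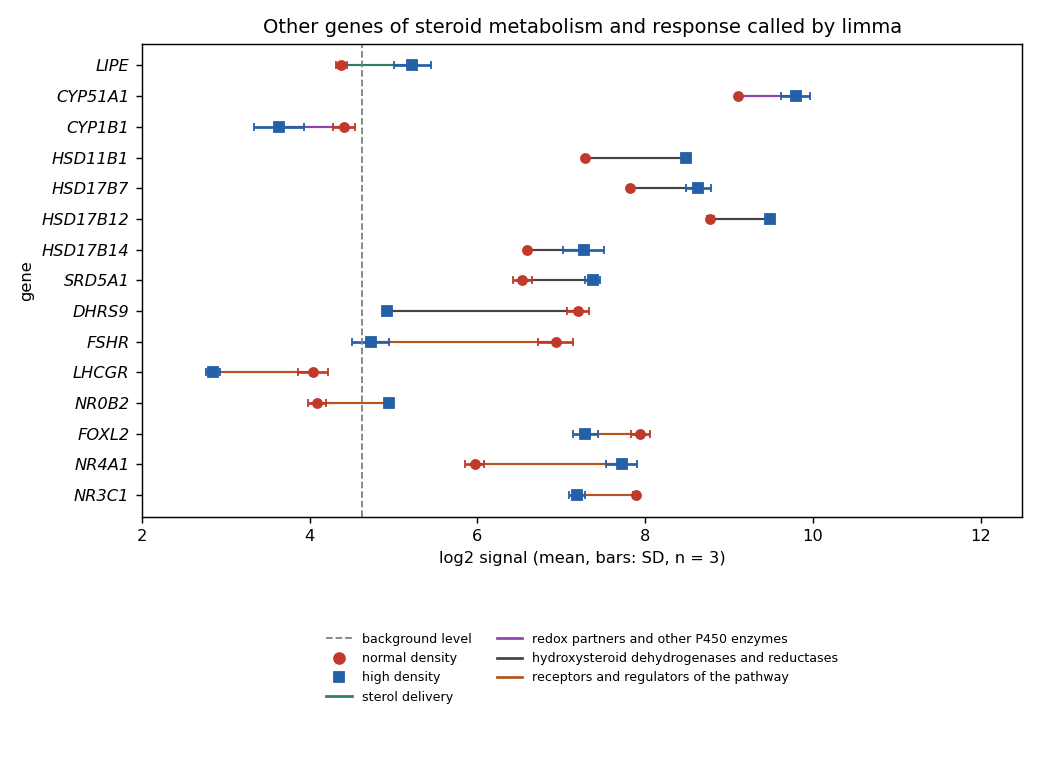
Mean log2 signal (x axis, bars: SD, n = 3) at normal density (red circles) and high density (blue squares) of the 15 called genes of steroid metabolism and response (y axis), with line colours for the gene lists and a dashed line at the background level of 4.62. All 4 called genes of the list of hydroxysteroid dehydrogenases whose names start with HSD lie further right at high density, whereas DHRS9, FSHR and NR3C1 lie further left.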

How the data were processed

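RNA of 6 bovine GC cultures, 3 per density, was measured on 1 array each. Per the paper's methods, the authors ran the scans through RMA in Expression Console at default settings (background reduction, normalization, gene-level summary) and deposited log2 signals per transcript cluster. The array's genome build is not given in the sources used here, so no coordinates are given. The table holds 0 columns of other samples, and no further normalization was applied.

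High and normal density were compared with limma 3.58.1 in R 4.3.3 (lmFit, eBayes, no covariates), with the thresholds of the methods. Groups come from the sample descriptions. The number of arrays limits the precision. A bound sets every array of a group that lies wholly below the background level to that level. Of the 9 genes, 8 matched RefSeq (ARS-UCD2.0) by accession under the same symbol and CYP11A1 by symbol, and FDX1L and CYP21 of the lists are FDX2 and CYP21A2 there. Sequences are not analysed here.

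The genes and lists were chosen with earlier results of these data known. One symbol of the lists is not reported here and was left out of their counts. Named were the 9 genes, every called gene of the lists and the 3 nearest profiles of each called gene. The marker genes of other cell types, WT1, SOAT1, TSPO, CYB5A and NR5A1 are named outside this rule, after their values were seen. The same holds for NR5A2, ESR1, ESR2, ARSE, SULT2B1, SULT1A1, HSD17B4, HSD17B8, HSD17B10 and HSD17B11. Alternatives were the methods' t-test (their analysis of variance) with and without equal variances, a robust trend, the replicate number as a block, array weights, a second quantile normalization, median centring, a filter at the background level, omission of reporter control rows, limma's treat, and leaving out each culture. The count past the FDR threshold under these was added after seeing the data. The script was tested on simulated data. Figures used matplotlib 3.10.9 (Python 3.11.15), and permutation tests used scipy 1.17.1. The hormone and qPCR measurements were not analysed here.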

Additional observations from a re-analysis of the deposited data

How the results depend on the processing

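CYP19A1 was called under all 16 alternatives, with log2 fold changes between −2.94 and −2.68, and HSD17B1 under 15, between 1.14 and 1.37. With the Welch version of the methods' t-test HSD17B1 kept its log2 fold change of 1.26 but had an adjusted p of 0.0530 (range over the alternatives without treat 1.69e-04 to 0.0530), so that 1 of the 9 genes was called. The other 7 genes were called under no alternative, and 6 of them kept their direction throughout. The log2 fold change of CYP17A1, near 0, changed sign with array weights (0.050), and it ranged from −0.041 to 0.065 when a culture was omitted.

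The number of the 9 genes past the FDR threshold was 4 with the methods' t-test, 2 with its Welch version and from 3 to 7 when a culture was omitted, where fewer arrays were fitted. With array weights it was 8, POR being added (adjusted p = 0.0463, range over the alternatives without treat 0.0463 to 0.353), and with median centring it was 6, CYP11A1 being lost. Of the 102 other transcript clusters of steroid metabolism and response, 8 were called with the Welch version and 5 with treat, and 14 to 16 when a culture was omitted.

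The replicate numbers were not found to pair the cultures, since the deviations from the group means of same-numbered cultures correlated by 0.05, −0.05 and −0.04. With the replicate number as a block 4 of the 9 genes passed the FDR threshold, 2 of 9 and 15 of the others being called as before. The differences between the changes of neighbouring genes had the same sign under the second quantile normalization, that of CYP19A1 and HSD17B1 being −4.06 there. Signals at or below the background level limit the size of the changes of CYP19A1 and HSD17B1.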
